A study of Mus musculus with 2 samples.

Results

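The enzymes of glycolysis, the citrate cycle, pyruvate and lactate metabolism, and the shuttles that carry reducing equivalents into mitochondria were followed in pancreatic islets of newborn mice with and without PERK. They are 42 genes, chosen by name from a list of these pathways. Of the 42 genes, 39 were represented by a probe set of 1 gene among the 12393 genes named on the array, and 38 had a signal above the floor on both arrays. Islets of wild-type mice of mixed strain and sex were compared with islets of PERK knockout mice, whose strain and sex the labels do not state. Both groups were taken 2 days after birth, were isolated with collagenase P and were hybridised to Affymetrix mouse 430A arrays, with 1 array per genotype. PERK, the product of Eif2ak3, slows protein synthesis when the endoplasmic reticulum is overloaded. The labels do not state how the gene was disrupted, in which cells, or whether RNA came from a pool of pups.

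Beta cells couple blood glucose to insulin release by burning it. Glucose is split in the cytosol by glycolysis, and nearly all of the pyruvate then enters mitochondria, either through pyruvate dehydrogenase as acetyl-CoA or through pyruvate carboxylase as oxaloacetate. Mature beta cells keep lactate dehydrogenase A (Ldha) and the monocarboxylate carrier Slc16a1 low, and return NADH from glycolysis to mitochondria through the glycerol phosphate shuttle (Gpd1 and Gpd2) and the malate aspartate shuttle (Mdh1, Mdh2, Got1 and Got2).

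Each value below is a deposited signal intensity in arbitrary units from a single array, so a ratio compares these 2 libraries and no p-value was computed. A ratio is given as log2 of the knockout over the wild-type signal. A floor of 39.8, the 40th percentile over both arrays, replaced lower signals. The brightest probe set stood for a gene. Error was judged from how far different probe sets of the same gene disagree, an SD of 0.26 on the log2 scale (1.19-fold) per probe set over 2597 genes. It leaves out the spread between animals, litters and RNA preparations. In whole islets, a lower signal from fewer cells of a type and from less RNA per cell cannot be told apart.

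No enzyme was 2-fold apart between the libraries, and 4 of the 38 measured enzymes were at least 1.5-fold apart. On their brightest probe sets, Eno2 and Idh1 were higher in the knockout library, and Pgk1 and Mdh1 were lower. These are 2 of 38 enzymes in each direction, where 4.19% of all 8133 measured genes were at least 1.5-fold higher and 2.95% at least 1.5-fold lower. At 2-fold, the shares of all measured genes were 0.516% higher and 0.652% lower. Pgk1 and Mdh1 exceeded the 1.5-fold limit, at 1.58-fold and 1.66-fold apart. Suclg2 and Fh1 fell just short of it, at 1.497-fold and 1.46-fold apart. The median log2 ratio of the 38 enzymes was -0.01, against 0.03 over all measured genes. A log2 ratio below 0 was found for 20 of the 38, and for 45.1% of all measured genes. Ratios farther from 0 than the probe set SD were found for 14 of the 38 enzymes (36.8%), 6 higher and 8 lower. Over all 8133 measured genes the share was 36.9%, with 1782 genes higher and 1221 lower.

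**Figure D1:**
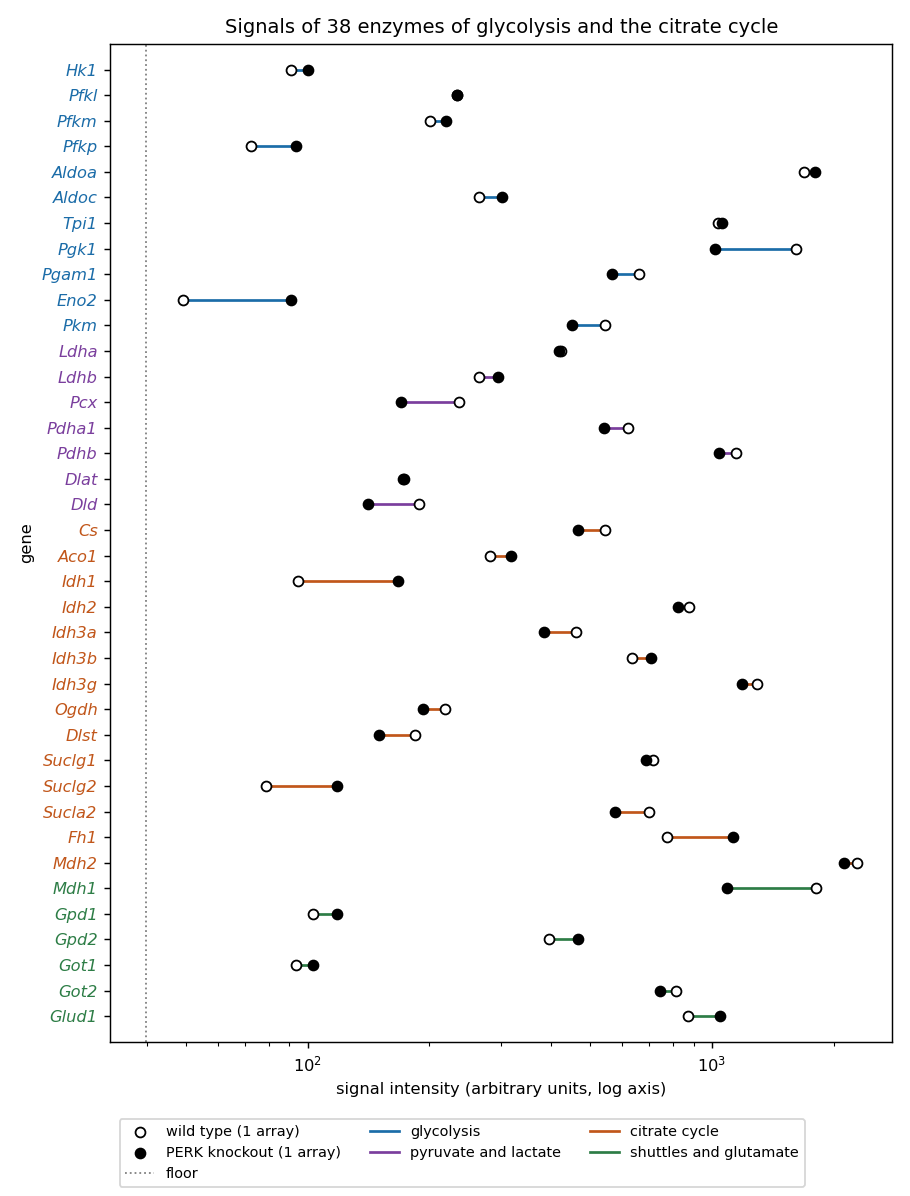
Signal intensity (log axis, arbitrary units) of the 38 measured enzymes on the wild-type array (open circles) and the PERK knockout array (filled circles), 1 array each, with the floor of 39.8 dotted. The widest gaps belong to Eno2, Idh1, Mdh1 and Pgk1, and the circles of Pfkl, Ldha and Dlat lie almost on each other.

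Promoter sequences of the enzymes at the 1.5-fold limit are shown with that of Ldha, because the hypoxia response core ACGTG, read by the factor HIF-1, is a known feature of glycolytic promoters. Idh1 is not shown, because its second brightest probe set read in the opposite direction, whereas those of Pgk1 and Mdh1 read lower as well. This choice was made with the values known. The dimmest probe sets of Pgk1 and Mdh1 read higher, and Eno2 has only 1 probe set. The windows of Idh1 held no ACGTG. The sequences are from RefSeq (GRCm38.p6), 5′ to 3′ on the strand of the gene, and cover the 250 bases before the start of transcription. Capitals mark ACGTG on either strand, which reads CACGT where it lies on the opposite strand.
Pgk1 promoter, chrX:106186850-106187099, plus strand: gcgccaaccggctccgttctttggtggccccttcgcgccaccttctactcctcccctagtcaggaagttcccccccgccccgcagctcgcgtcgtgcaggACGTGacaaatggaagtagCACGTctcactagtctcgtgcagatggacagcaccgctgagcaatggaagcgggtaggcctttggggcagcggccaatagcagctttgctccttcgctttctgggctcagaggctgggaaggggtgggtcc
Mdh1 promoter, chr11:21571935-21572184, minus strand: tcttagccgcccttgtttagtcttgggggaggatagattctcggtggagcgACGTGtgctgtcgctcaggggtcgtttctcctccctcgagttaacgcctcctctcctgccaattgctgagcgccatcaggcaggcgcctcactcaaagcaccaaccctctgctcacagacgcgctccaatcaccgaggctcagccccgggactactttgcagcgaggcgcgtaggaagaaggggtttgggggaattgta
Ldha promoter, chr7:46845554-46845803, plus strand: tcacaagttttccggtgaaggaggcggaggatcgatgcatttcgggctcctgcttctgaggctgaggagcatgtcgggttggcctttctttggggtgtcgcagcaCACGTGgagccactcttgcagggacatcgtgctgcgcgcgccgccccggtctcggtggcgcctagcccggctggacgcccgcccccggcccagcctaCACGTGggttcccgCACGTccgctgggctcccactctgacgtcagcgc
Eno2 promoter, chr6:124769674-124769923, minus strand: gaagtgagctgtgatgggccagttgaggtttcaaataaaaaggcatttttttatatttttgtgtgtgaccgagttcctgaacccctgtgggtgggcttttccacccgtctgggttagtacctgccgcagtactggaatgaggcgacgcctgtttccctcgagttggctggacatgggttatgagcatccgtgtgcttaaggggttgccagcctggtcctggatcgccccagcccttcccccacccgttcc

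The motif was counted in windows from 250 bases before to 50 bases after each start, for the 40 enzymes that matched the table, which have 59 windows. ACGTG on either strand occurred in 9 of 15 glycolysis genes (60%), in 2 of 13 citrate cycle genes (15.4%) and in 21.8% of the 27025 genes of the table, which include genes of every kind. By window rather than by gene, it was in 11 of 25 windows of glycolysis genes (44.0%), in 7 of 19 of citrate cycle genes (36.8%), of which Ogdh has 6 overlapping or neighbouring ones, and in 19.6% of all 32851 windows. The window of Ldha printed above held 5 matches, since each E box, CACGTG, contains the core on both strands. The window of another Ldha start, which is not printed, held neither ACGTG nor the E box. The window of Pgk1 held 2 and that of Mdh1 held 1. No ACGTG was found in the window of Eno2, which says only that these letters are not there. The E box occurred in 4 of the 40 enzymes (10.0%) and in 8.09% of all genes. The cyclic AMP response element TGACGTCA occurred in Ldha, Ogdh and Mdh2, 3 of 40 (7.50%), against 2.03% of all genes. The carbohydrate response element in its strict form, a pair of E boxes 5 bases apart, occurred in 0 windows of the table. These counts describe letters and were not tested.

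Glycolysis was slightly above equality in its first steps, up to the triose phosphates, and mixed after them. The 11 measured glycolysis genes had a median log2 ratio of 0.09, and 8 were above 0. Hexokinase traps glucose in the cell by phosphorylating it. Hk1, the isozyme of most tissues, went from 90.9 in the wild type to 100 in the knockout (log2 ratio 0.14). Hk2, the insulin-regulated hexokinase of muscle and fat, was under the floor on both arrays (25.5 and 20.9).

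Phosphofructokinase, the committed step of glycolysis, has 3 isozymes on the array. The liver form Pfkl went from 233.5 to 234.2, a log2 ratio of 0.00, with 0.10 on its other probe set. The muscle form Pfkm went from 200.4 to 220.0 (0.13). The platelet form Pfkp, the dimmest probe set of the 3 on both arrays, went from 72.4 to 93.6 (0.37), past the probe set SD. The ratio of Pfkp exceeded that of Pfkl by 0.37, where the SD of a difference between 2 probe sets is 0.36.

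Aldolase splits fructose bisphosphate, and triose phosphate isomerase interconverts its products. Aldoa went from 1686 to 1794 (log2 ratio 0.09), and its 4 probe sets all lay above 0, between 0.02 and 0.28. Aldoc, the aldolase of brain, went from 265.0 to 302.7 (0.19). Tpi1 went from 1036 to 1058 (0.03), and its 3 probe sets lay between 0.03 and 0.09. All 7 measured genes from Hk1 to Tpi1 were above 0, with a median of 0.13, but only Pfkp was farther from 0 than the probe set SD. The median over all measured genes was 0.03. With that median set to 0, Pfkl and Tpi1 fell just below 0 (-0.03 and -0.001). This grouping of the steps was made after the values were seen.

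From glyceraldehyde phosphate to pyruvate, 3 of the 4 measured genes were lower in the knockout library. Gapdh was represented by Affymetrix's own control probe sets, which were kept out of the gene count, and by probe sets that also match Gapdh pseudogenes. On the control probe sets its log2 ratios were -0.16 at the 3′ end, -0.13 in the middle and 0.06 at the 5′ end of the transcript, all within the probe set SD. Pgk1, phosphoglycerate kinase, which makes the first ATP of the pathway, went from 1612 to 1018 on its brightest probe set (-0.66). Its second probe set also read lower, from 977.5 to 787.4 (-0.31), and its dimmest read higher, from 94.9 to 116.9 (0.30). The brightest is of the type whose probes are shared with other sequences (suffix _x_at), as is the dimmest. Pgam1, phosphoglycerate mutase, went from 661.0 to 564.6 (-0.23). Eno2, neuronal enolase and a marker of neuroendocrine cells, went from 49.2 to 90.7 (0.88), the highest ratio of all 38 enzymes. Its wild-type signal lay close to the floor, it has only 1 probe set, and with the floor at the 60th percentile it was no longer measured. Pkm, pyruvate kinase of muscle and of most other tissues, went from 544.2 to 449.6 (-0.28). Gpi1 and Eno1, glucose phosphate isomerase and alpha enolase, were unnamed here.

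Among the enzymes that use pyruvate, Pcx and Dld were lower by more than the probe set SD, and the other 5 lay within it. Of the 7 measured genes, 6 were below 0 on their brightest probe set. The median log2 ratio was -0.14, and it was -0.020 with the median over all measured probe sets of a gene. Pyruvate carboxylase (Pcx), which feeds oxaloacetate to the cycle and is abundant in beta cells, went from 236.3 to 169.7 (-0.48). A control probe set at the 3′ end of Pcx also read lower, from 125.8 to 66.2 (-0.93), and its other 3 control probe sets were under the floor on both arrays. These 2 readings of Pcx have the same direction, and both are past the probe set SD.

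Pyruvate dehydrogenase is built from Pdha1, Pdhb, Dlat and Dld, and all 4 had log2 ratios below 0 on their brightest probe set. Pdha1, the alpha subunit of E1, went from 618.1 to 540.3 (-0.19), while its second probe set went from 191.4 to 232.9 (0.28). Pdhb, the beta subunit of E1, went from 1145 to 1040 (-0.14), with -0.13 on its second probe set. Dlat, the acetyltransferase E2, went from 173.1 to 172.3 (-0.01), with 0.09 and 0.20 on its other probe sets. Dld, the E3 subunit that also serves oxoglutarate dehydrogenase, went from 188.9 to 141.0 (-0.42). Of the 4, Dld alone was farther from 0 than the probe set SD. Dld has a single probe set.

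Lactate dehydrogenase was level. Ldha, the form that favours lactate production and is kept low in mature beta cells, went from 423.4 in the wild type to 417.6 in the knockout, a log2 ratio of -0.02. Ldhb, the form of heart and other oxidative tissues, went from 265.6 to 294.8 (0.15), and its 4 probe sets lay between -0.04 and 0.15. The log2 ratio of Ldha minus that of Ldhb was -0.17, within the SD of 0.36 for a difference.

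The citrate cycle was close to equality, slightly below it for most enzymes and above it for a few. Its 14 genes had a median log2 ratio of -0.10, with 9 below 0 and 5 above. Without Aco1, Idh1 and Idh2, which are cytosolic or use NADP, the 11 remaining genes had a median of -0.12 with 8 below 0. Citrate synthase (Cs), the entry of acetyl-CoA, went from 543.7 to 467.0 (-0.22), and its 3 probe sets were all below 0, from -0.31 to -0.05. Aco1, the cytosolic aconitase that doubles as iron regulatory protein, went from 282.3 to 318.0 (0.17), with -0.02 on its second probe set.

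The isocitrate dehydrogenases differed among themselves in direction. Idh1, the cytosolic NADP enzyme, went from 94.8 to 167.0 on its brightest probe set (0.82) and from 114.7 to 91.9 on the other (-0.32). Both are of the shared type (suffix _s_at), so the direction of Idh1 is not settled by these arrays. Idh2, its mitochondrial counterpart, went from 879.0 to 824.5 (-0.09). Of the subunits of the NAD enzyme, the catalytic Idh3a went from 459.9 to 383.8 (-0.26), with -0.16 on its second measured probe set. Idh3b went from 634.3 to 704.8 (0.15), with 0.18 on its second probe set. Idh3g went from 1290 to 1187 (-0.12), with -0.17 on its second. Thus both measured probe sets of each subunit had 1 direction, and the log2 ratio of Idh3a minus that of Idh3b was -0.41, past the SD of a difference.

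Oxoglutarate dehydrogenase has Ogdh and Dlst as its own subunits. Ogdh (E1) went from 219.0 to 192.6 (-0.19), within the probe set SD. Dlst (E2) went from 184.6 to 149.9 (-0.30), while its dimmer probe set went from 60.9 to 67.5 (0.15).

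Succinyl-CoA synthetase pairs the shared alpha subunit Suclg1 with either the GTP-forming Suclg2 or the ATP-forming Sucla2. Suclg1 went from 715.0 to 686.4 (-0.06). Suclg2 went from 78.9 to 118.1 (0.58) and Sucla2 from 699.7 to 575.9 (-0.28), a difference of 0.86 between the log2 ratios of these beta subunits. This was the widest gap among the 11 pairs of isozymes and subunits compared, a choice made with the values known. Past the SD of a difference were 4 of the 11 gaps. The share among pairs of other genes was not computed, so that count has nothing to be set against. Suclg2 and Sucla2 each have a single probe set.

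Fh1, fumarate hydratase, went from 773.1 to 1126 (0.54), a ratio that rests on a single probe set. Mdh2, the mitochondrial malate dehydrogenase and the brightest probe set of the enzymes, went from 2282 to 2126 (-0.10), with -0.19 on its second probe set. Its wild-type signal was 28.1% of the array maximum, so none of the 38 enzymes lay near the top of the scale.

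**Figure D2:**
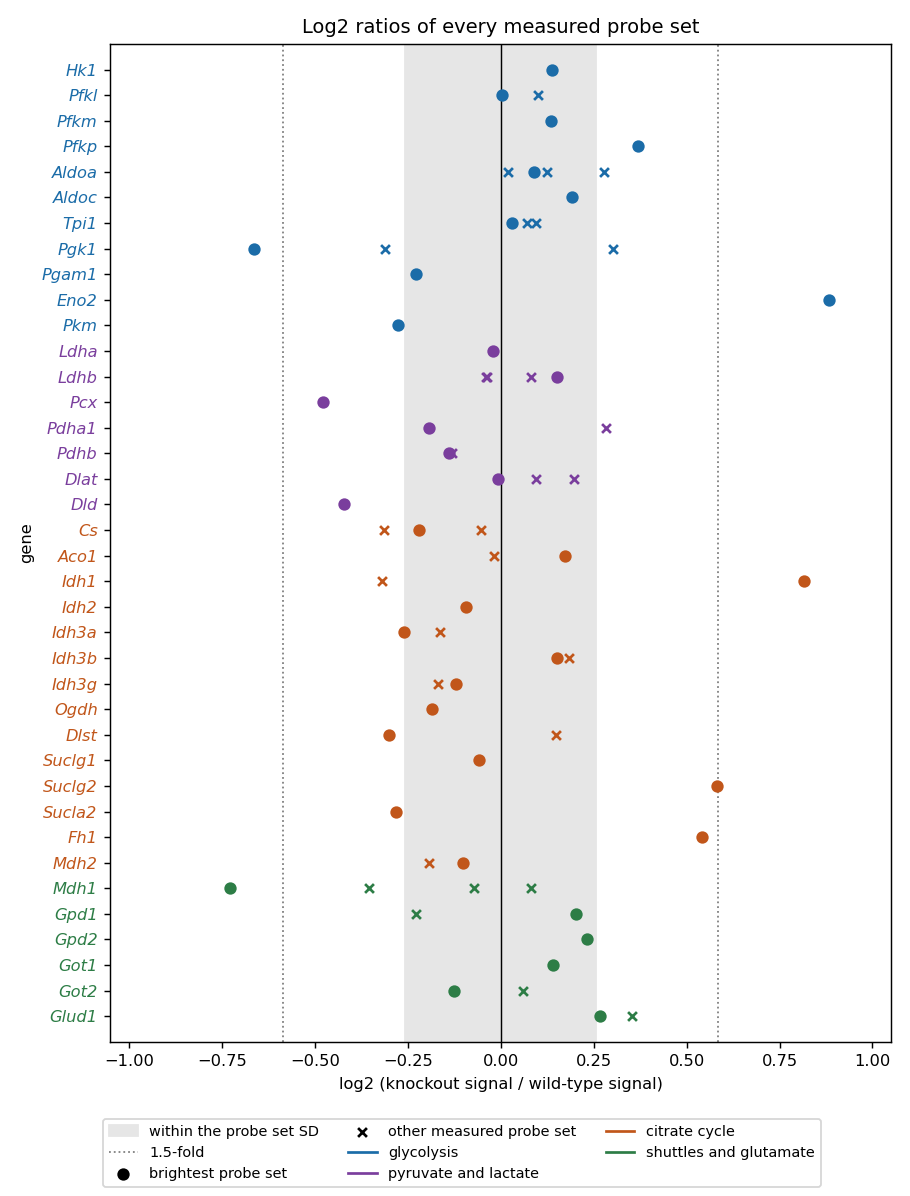
Log2 ratio of knockout over wild-type signal for every measured probe set of the 38 enzymes, with filled circles for the brightest probe set of a gene, crosses for its others, a grey band for the probe set SD of 0.26 and dotted lines at 1.5-fold. Crosses on the other side of 0 from the circle, as for Pgk1, Mdh1, Idh1 and Pdha1, mark genes whose probe sets differed in direction.

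Among the shuttle and glutamate enzymes, Mdh1 had the lowest ratio and Glud1 the highest. The 6 genes of the shuttles and of glutamate had a median log2 ratio of 0.17, with 4 above 0 and Mdh1 and Got2 below. Mdh1, the cytosolic malate dehydrogenase, went from 1805 to 1090 on its brightest probe set (-0.73), the lowest ratio of the 38 enzymes. Its second probe set went from 1133 to 885.8 (-0.35), the third from 807.3 to 768.5 (-0.07), and the dimmest from 60.3 to 63.8 (0.08). The size of the difference therefore depended on the probe set, and the brightest is again of the shared type. The log2 ratio of Mdh1 minus that of Mdh2 was -0.63 on their brightest probe sets. Their second probe sets lay closer together, at -0.35 for Mdh1 and -0.19 for Mdh2.

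Gpd1, the cytosolic glycerol phosphate dehydrogenase, went from 102.8 to 118.4 (0.20), with -0.23 on its second measured probe set. Gpd2, its mitochondrial partner and a well known enzyme of beta cells, went from 395.7 to 465.0 (0.23) on its single probe set. Got1 and Got2 are the cytosolic and mitochondrial aspartate aminotransferases. Got1 went from 93.4 to 102.9 (0.14). Got2 went from 814.1 to 745.7 (-0.13), with 0.06 on its second probe set. Glud1, glutamate dehydrogenase, which feeds the cycle from amino acids, went from 872.4 to 1049 (0.27) and from 689.9 to 880.8 (0.35) on its second probe set, higher on both.

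Glycolysis was set against the citrate cycle, and Ldha against the shuttle enzymes. Glycolysis lay above the citrate cycle by 0.19 in median log2 ratio (0.09 against -0.10). That difference is smaller than the SD of a single probe set, which is not the error of a difference between medians. Individual ratios ranged from -0.66 to 0.88 within glycolysis and from -0.30 to 0.82 within the cycle. The difference between the medians was 0.10 after quantile normalisation. The log2 ratio of Ldha minus the median of the 5 shuttle enzymes Mdh1, Gpd1, Gpd2, Got1 and Got2 was -0.16, also within the probe set SD. With the median over all measured probe sets of a gene, that difference was -0.01. Probe sets differ in brightness per transcript, so the level of Ldha was not set against the levels of the shuttle enzymes. The low Ldha of beta cells is thus not addressed by these signals, which also come from islet preparations with other cells.

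**Figure D3:**
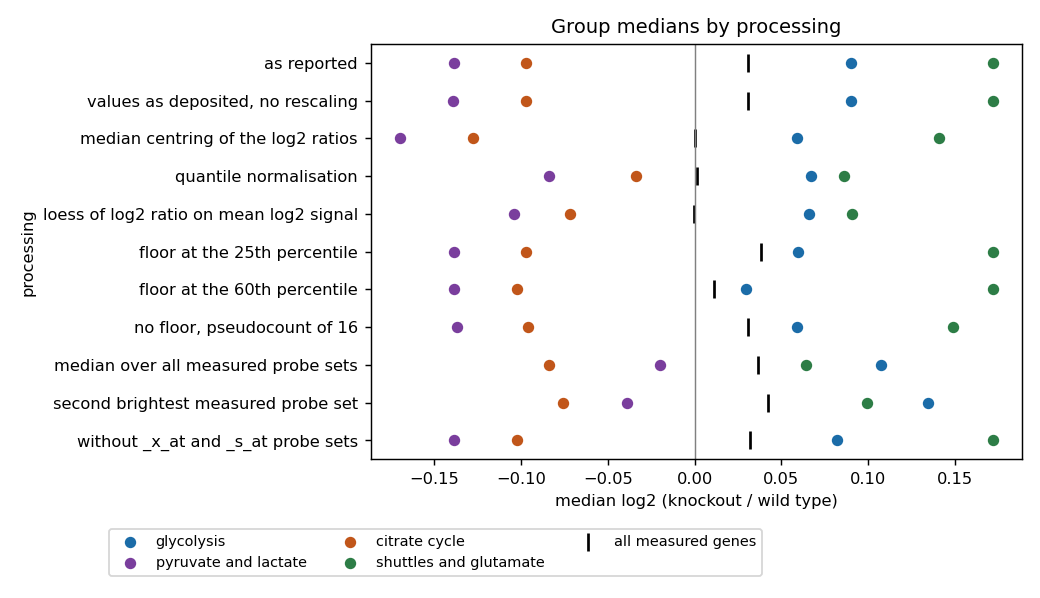
Median log2 ratio (knockout over wild type) of each group of enzymes under the reported processing and 10 alternatives, with a black tick for the median of all measured genes. Glycolysis stayed above the citrate cycle in each of them, by 0.10 to 0.21.

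Probe sets of the same enzyme often differed in direction. Of 20 enzymes with at least 2 measured probe sets, 5 had all of them above 0, 5 had all of them below 0 and 10 had both. The 5 higher on all were Pfkl, Aldoa, Tpi1, Idh3b and Glud1. The 5 lower on all were Pdhb, Cs, Idh3a, Idh3g and Mdh2. The brightest 2 probe sets had the same direction for 12 of the 20 enzymes (60%) and for 61.2% of 2597 genes. The SD per probe set was 0.25 among the enzymes.

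**Figure D4:**
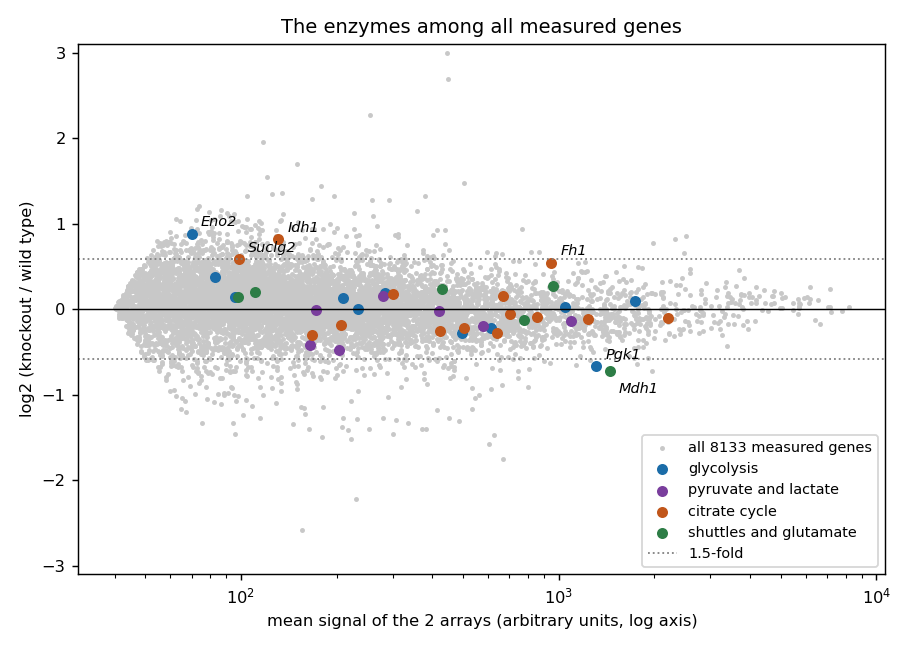
Log2 ratio against the mean signal of the 2 arrays (log axis) for all 8133 measured genes in grey and the 38 enzymes in colour. Eno2, Suclg2 and Idh1 lie among dim genes, whose ratios scatter widely, and Fh1, Pgk1 and Mdh1 lie among bright ones.

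Among the 2034 brightest measured genes, 1.47% were at least 1.5-fold higher and 2.65% at least 1.5-fold lower. Pgk1 and Mdh1 belong to those bright genes.

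Genes around these pathways, from a list of 64, had 33 measured members with a median log2 ratio of -0.08, 21 of them below 0, where 45.1% of all measured genes were below 0. At least 1.5-fold higher were 2 of the 33 (4.19% of all measured genes), and 3 were at least 1.5-fold lower (2.95% of all). Pdk4, a kinase that switches off pyruvate dehydrogenase, went from 286.2 to 542.7 (0.92). Slc2a3, a glucose transporter of neurons and blood cells, went from 73.7 to 140.7 (0.93), with 0.41 on its second probe set. Slc2a2, the glucose transporter of mouse beta cells, went from 860.4 to 464.9 (-0.89). G6pc2, a glucose-6-phosphatase subunit of beta cells, went from 2459 to 1483 (-0.73). Sdha, the flavoprotein of succinate dehydrogenase, went from 948.4 to 541.9 (-0.81), with -0.28 on its second probe set.

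The other kinases of pyruvate dehydrogenase had log2 ratios of 0.24 for Pdk1, 0.49 for Pdk2 and -0.47 for Pdk3. Mpc1, a subunit of the mitochondrial pyruvate carrier, went from 457.2 to 344.7 (-0.41), next to the lower Pcx and Dld. The remaining succinate dehydrogenase subunits had -0.05 for Sdhb, 0.01 for Sdhc and -0.11 for Sdhd, with -0.35 and 0.29 on the second probe sets of Sdhc and Sdhd. Slc25a11, the oxoglutarate carrier of the malate aspartate shuttle, had -0.24. Me1, malic enzyme, had -0.14, with 0.41 on its second probe set. Slc2a1, a widely expressed glucose transporter, had 0.11, with -0.10 and 0.35 on its other measured probe sets. Slc16a1, the monocarboxylate carrier that is kept low in beta cells together with Ldha, was under the floor on both arrays (28 and 39.6). Mpc2 and Slc25a12 were unnamed here.

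The samples differed in other ways, whose part in these ratios was not tested. Eif2ak3 itself went from 117.7 to 58.7 on its brightest probe set. Of 6 measured beta cell markers, 5 were below 0, with a median of -0.46. The signals of the 6 summed to 16479 in the wild type against 14832 in the knockout. The 6 include Slc2a2 and G6pc2, already given above among the genes around the pathways. Ins2 was above 0 (0.12), and Iapp, Pdx1 and Nkx6-1 had -0.13, -0.34 and -0.58. The 4 measured proliferation genes were all below 0 (median -1.41, summed signal 1407 and 522.8). All 4 measured neutrophil markers were above 0 (median 2.48), and the 5 named ones, with Camp under the floor in the wild type, summed to 359.6 and 2331. All 6 measured macrophage markers were above 0 (median 0.70), and the 7 named ones, with C1qc under the floor in the wild type, summed to 947.0 and 1479. Of the 6 measured acinar markers, 5 were above 0 (median 0.10, summed signal 23579 and 24941). The 3 alpha cell markers had 0.01 (Gcg), 0.02 (Ttr) and 0.61 (Irx2). The 2 delta cell markers had 0.06 (Sst) and 0.61 (Hhex), and Ppy of PP cells had 0.23. The median over all measured genes was 0.03. Endothelial (5 measured, -0.10), mesenchymal (6 measured, 0.20) and duct markers (4 measured, -0.01) had medians within the probe set SD of 0. Their single markers ranged more widely, from -0.16 to 0.08, from -0.22 to 0.54 and from -0.19 to 1.09. The highest was Tspan8 of duct, which went from 166.8 to 354.7. The defining markers of islets and of acinar tissue were present on both arrays. Of red blood cells, Hba-a1 was under the floor on both arrays, but Alas2 was measured and went from 73.5 to 64.4 (-0.19). Of muscle, Ckm and Myh1 were under the floor on both, but Acta1 was measured close to it and went from 46.1 to 42.2 (-0.13). As a measure of RNA quality, the 3′ signal of beta-actin was 1.61 times its 5′ signal in the wild type and 2.01 times in the knockout. For Gapdh these ratios were 1.01 and 0.867.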

How the data were processed

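Total RNA of islets was labelled with biotin and hybridised to 1 array per genotype. The values deposited by the authors are linear intensities, 1 per probe set, from GCOS 1.02 per the submitters' processing notes. Background correction and summary method are not stated. On both arrays the deposited values have a 2% trimmed mean of 150.1.

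Of 22690 probe sets, 20380 carry 1 gene symbol in the platform annotation and 691 carry several, while 1555 are unnamed here and 64 are Affymetrix controls, kept out of gene values. Signals were set to equal trimmed means (factor 1.00) and to the floor, and log2 ratios were taken for the brightest probe set of each gene (Python 3.11.15, pandas 2.3.3). Genes were counted at 1.5-fold and 2-fold. The procedure was tested on simulated data with known ratios in bright genes and noise set to the probe set SD. Dim enzymes and the spread between animals were outside that simulation. The 42 enzymes, the lists and the limits were chosen with earlier results of these data known. All 42 are named, and of 64 genes around the pathways those 1.5-fold apart, a preset few and 6 chosen after their values were seen. Precision is limited by the number of arrays. Alternatives were 4 scalings, 3 treatments of low signals, 3 choices of probe set and other groupings of the enzymes.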

Additional observations from a re-analysis of the deposited data

How the results depend on the processing

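No paired analysis was possible because each genotype has 1 array and no test was made. A value is said to have moved when it differed by at least the probe set SD, used for single enzymes and for Ldha against the shuttle enzymes. For a median or a difference of medians the limit was that SD divided by the square root of the number of genes, and a count moved when it differed by more than 1.5 times. The medians of glycolysis (0.03 to 0.13) and of the citrate cycle (-0.13 to -0.03) kept their sign without moving in all 11 alternatives of each, and the difference of Ldha from the shuttle enzymes (-0.16 to -0.01) did so in 10, by its wider limit. Glycolysis minus citrate cycle moved to 0.10 with quantile normalisation and to 0.13 with the floor at the 60th percentile. The pyruvate and lactate median moved to -0.020 with the median over all measured probe sets and to -0.039 with the second brightest probe set. The median of shuttle and glutamate enzymes moved to 0.064 with the median over all measured probe sets, and to 0.019 with Mdh2 counted and Glud1 left out. Enzymes at least 1.5-fold higher were 1 with the floor at the 60th percentile (2.39% of all measured genes) and 3 with quantile normalisation (3.24%). They were 1, and those at least 1.5-fold lower were 0, with the median over probe sets (3.69% and 2.46% of all measured genes), with the second brightest probe set (4.44% and 2.95%), and without probe sets whose names end in _x_at or _s_at (4.15% and 2.90%). Idh1 reversed, from 0.82 to -0.32, on its second brightest probe set. Of 375 values of single enzymes under the alternatives, 364 did not move, and 32 of the 38 enzymes moved in none. These counts do not measure robustness, because many of the values could not move. Values as deposited were nearly identical to the scaled ones, and median centring shifted every ratio by only 0.03. A changed floor left the ratio of any enzyme still measured as it was. The choice of probe set cannot alter an enzyme with a single measured probe set. Apart from the choice of probe set and floor, the cause of the moves was not tested. Signal over background limits Eno2, Hk1, Pfkp, Idh1, Suclg2 and Got1, whose wild-type signals were under 100.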

Other observations

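Enzymes of the pentose phosphate pathway, which branches from glycolysis to make NADPH and ribose, were on both sides of equality, and none was 1.5-fold apart. They were singled out after their values were seen. Pgls, the lactonase of the oxidative branch, went from 361.3 to 498.4 (log2 ratio 0.46), and Rpia, ribose phosphate isomerase, from 418.9 to 536.4 (0.36). Rpe, ribulose phosphate epimerase, went from 150 to 102.0 (-0.56), with -0.19 on its second probe set, and Taldo1, transaldolase, from 600.6 to 468.2 (-0.36). Tkt, transketolase, had -0.13, with 0.19 on its second probe set. Pgd, the second dehydrogenase of the oxidative branch, had -0.13 on its brightest, while its other 3 lay between -0.11 and 0.36.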
